A study of Mus musculus with 25 samples.

Results

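The genes followed here are 2 metallothioneins, a zinc exporter and 7 genes of polyamine metabolism: Mt1, Mt2, Slc30a1, Sat1, Odc1, Srm, Sms, Smox, Amd1 and Azin1. They were taken by symbol, 10 of 24015 symbols in each of 2 tables of normalized read counts, and they were picked with earlier results from the same libraries known. Their fold changes are therefore given as descriptions with their errors and without p-values. The tables hold RNA sequencing of mouse basal cell carcinomas, a skin tumour driven by the Hedgehog pathway, and of ASZ001, a line grown from such a tumour in mice and labelled as resistant. There were 4 resistant and 4 sensitive tumours, all from C57BL6 mice that carried Ptch+/-, p53 fl/fl and also K14 Cre-ER, in which the keratin 14 promoter of basal keratinocytes drives the Cre, and all had received an oral Smo inhibitor. ASZ001 cells were treated with CCG-1423, an inhibitor of the MRTF coactivators of SRF, with the Smo inhibitor vismodegib, or with vehicle, in 3 libraries each. The sources used here give no dose, time or age, nor whether replicates are separate animals or cultures, and errors and p-values cover only the spread between these libraries. Resistant tumours held 17537094 to 20014426 reads at genes and sensitive tumours 8111252 to 14161398, while CCG-1423 libraries held 32024887 to 41040633, vismodegib libraries 30455530 to 35561668 and vehicle libraries 32192090 to 44017757.

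Metallothioneins are small, cysteine-rich proteins that bind zinc and copper in the cytosol, and their genes are switched on by the zinc-sensing transcription factor MTF1, which also acts on the zinc exporter gene Slc30a1. Polyamines are made from ornithine by Odc1, the rate-limiting decarboxylase, and are extended to spermidine by Srm and to spermine by Sms, with propylamine groups that Amd1 prepares from S-adenosylmethionine. Sat1 acetylates spermidine and spermine for export or breakdown, and Smox oxidises spermine back to spermidine, while Azin1 protects Odc1 from antizyme, the protein that sends it to the proteasome. In mouse skin, Odc1 is known for its link to hair follicles and to tumour growth.

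The sequences before the starts of the metal-related genes are shown because these 3 genes are the textbook targets of MTF1. The RefSeq table (GRCm38.p6) held 8 of the 10 genes. The 250 bases before the start lie at chr8:94178839-94179088 for Mt1, chr8:94172368-94172617 for Mt2 and chr1:191906531-191906780 for Slc30a1, all on the plus strand. Capitals mark matches to the core of the metal response element, TGCACNC or TGCGCNC on either strand, with each match counted apart where matches overlap.
Mt1: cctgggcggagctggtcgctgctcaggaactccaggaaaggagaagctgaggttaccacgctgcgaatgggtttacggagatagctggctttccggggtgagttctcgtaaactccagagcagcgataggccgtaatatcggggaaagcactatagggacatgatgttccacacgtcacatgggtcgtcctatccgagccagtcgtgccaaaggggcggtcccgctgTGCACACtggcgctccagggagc
Mt2: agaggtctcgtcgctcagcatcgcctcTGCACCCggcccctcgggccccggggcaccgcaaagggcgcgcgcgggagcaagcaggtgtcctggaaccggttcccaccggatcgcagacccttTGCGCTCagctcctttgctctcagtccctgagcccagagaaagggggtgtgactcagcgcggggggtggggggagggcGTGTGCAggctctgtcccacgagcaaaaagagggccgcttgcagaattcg
Slc30a1: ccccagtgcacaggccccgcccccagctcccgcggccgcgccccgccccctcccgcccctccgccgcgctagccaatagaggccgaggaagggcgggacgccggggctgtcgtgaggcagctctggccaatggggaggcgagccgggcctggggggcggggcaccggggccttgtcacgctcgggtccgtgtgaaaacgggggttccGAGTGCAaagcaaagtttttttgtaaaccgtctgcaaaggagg
The core occurred 3 times in the Mt2 window and once each in the Mt1 and Slc30a1 windows, and 21.4% of 32841 such windows over all genes held it. The Odc1, Smox and Amd1 windows held 2 matches each, and Sat1 and Sms had none. An E-box, CACGTG, the site of Myc and its relatives, was found in a window of Sms alone among the 8 genes, against 6.02% of all windows, and the CArG box of SRF in 0 of the 8, against 1.47% of all windows. A match describes letters in the window and not a bound site. Only the 250 bases before the RefSeq start were searched. Elements elsewhere were not counted, so the numbers of matches do not rank the promoters of these genes.

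Amd1 was listed at 0 in all 17 libraries. Amd2, a near-identical copy of it in the mouse genome, was also listed at 0, and the sources used here do not say how reads that match both were counted, so no level or fold is given for Amd1. The other 9 genes rested on at least 161 reads in every tumour library and at least 246 in every cell library, and all 9 passed the filter on low values in both tables. The labelled cell type was checked against its markers. Krt5 and Krt14, keratins of basal cells, reached 609916 to 630356 and 441881 to 448818 normalized counts with vehicle. Ptprc, the pan-leukocyte gene, was at 0 to 1.06 normalized counts in all 9 cell libraries, where 3 reads are worth 2.45 to 3.40. Of the other leukocyte markers, Laptm5 was at 4.47 to 18.4 across the cell libraries. Coro1a was at 21.2 to 26.8 with CCG-1423, 1.02 to 3.87 with vismodegib and 2.13 to 4.08 with vehicle. Of the Hedgehog target genes, Gli1 was at 1100 to 1304 with vehicle, 229 to 272 with vismodegib and 319 to 409 with CCG-1423. Ptch1 was at 305 to 332 with vehicle, 268 to 290 with vismodegib and 494 to 655 with CCG-1423. Hhip was at 0 with vehicle and CCG-1423 and at 0 to 1.93 with vismodegib. Among the tumours, sensitive tumour 4 stood apart from its group. On average it correlated across genes at 0.952 with resistant tumours but at 0.828 with its own group's tumours 1 to 3, so the tumour values are given with and without it.

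With CCG-1423 the genes of metal binding and of polyamine metabolism lay above vehicle in ASZ001 cells, with Sms as the exception. All 9 measured genes passed the threshold (adjusted p below 0.05 by limma over all genes), 8 higher and 1 lower, but 85.3% of the 12775 genes tested passed, 42.8% as higher and 42.6% as lower, so passing says little about these genes. Of the 9, 5 rose at least 2-fold, as did 11.7% of all genes tested, and Sms fell at least 2-fold, as did 15.3%. The median log2 fold change of the 9 was 1.19, beside 0.00 over all genes tested. Since the genes were picked with these results known, the counts are descriptions. Every value of the 3 CCG-1423 libraries lay outside the range of the 3 vehicle libraries for all 9 genes, as in 43% of genes tested on the higher side and 42.8% on the lower side. The summed level of 6 basal keratinocyte markers was 222958 to 229349 normalized counts with CCG-1423 and 1.14e+06 to 1.17e+06 with vehicle. Krt5 alone lay at 96352 to 100228 with CCG-1423 and at 609916 to 630356 with vehicle. The part of this marker difference in the results was not tested. Of the 5 macrophage markers, C1qa was at 0 in every cell library, Emr1 and Lyz2 were at 0 to 1.85 normalized counts, and Csf1r was at 2.23 to 4.33 with CCG-1423 and 19.2 to 19.6 with vehicle. Cd68, a lysosomal protein gene that other cells also express, was at 774 to 936 with CCG-1423 and 393 to 441 with vehicle.

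Both metallothioneins rose with CCG-1423, Mt2 by more than Mt1. Mt2 had 147016, 164215 and 156690 normalized counts with CCG-1423, 22803, 22911 and 22196 with vismodegib, and 19430, 20024 and 19111 with vehicle. The CCG-1423 values stood far above both other groups, and the log2 fold change was 2.997 ± 0.04 (SE) over vehicle, a 7.98-fold difference. Mt1 had 101959, 112051 and 110328 normalized counts with CCG-1423, 33355, 35143 and 33506 with vismodegib, and 29820, 30298 and 29195 with vehicle. Its log2 fold change over vehicle was 1.86 ± 0.04, a 3.63-fold difference and thus smaller than that of Mt2. Together Mt1 and Mt2 took 0.747 ± 0.0444% of all reads at genes with CCG-1423, 0.165 ± 0.00322% with vismodegib and 0.136 ± 0.00303% with vehicle (SD, n = 3 each). Slc30a1, which moves zinc out of the cytosol, had 5769, 6776 and 6273 normalized counts with CCG-1423, 3570, 3583 and 3650 with vismodegib, and 3756, 3773 and 3673 with vehicle. Its rise of 0.75 ± 0.04 on the log2 scale was the smallest of the metal genes, and the CCG-1423 libraries varied more among themselves (coefficient of variation 8.02%) than the vehicle libraries (1.44%).

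Because Mt2 rose more than Mt1, the balance of the pair within a library moved. The ratio of Mt2 to Mt1 normalized counts was 1.44, 1.47 and 1.42 with CCG-1423, 0.684, 0.652 and 0.662 with vismodegib, and 0.652, 0.661 and 0.655 with vehicle. Such a ratio is not corrected for gene length, so only its differences between libraries are read, and it does not depend on how libraries were scaled. The CCG-1423 libraries were apart from the others, while the vismodegib and vehicle ranges overlapped. In the tumours the ratio was higher than in any cell library, at 2.66 to 4.31 in resistant and 1.98 to 4.10 in sensitive tumours.

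The synthesis genes Odc1, Azin1 and Srm all rose with CCG-1423. Odc1 had 4411, 4449.97 and 4558 normalized counts with CCG-1423, 1991, 1773 and 1991 with vismodegib, and 1770.01, 1735 and 1702 with vehicle, a log2 fold change of 1.37 ± 0.04 for CCG-1423 over vehicle. Srm had 3851, 3960.2 and 3927 normalized counts with CCG-1423, 1889, 1914 and 1922 with vismodegib, and 1725, 1699.6 and 1701 with vehicle, with 1.19 ± 0.03. Srm was the steadiest of the 9 genes in the cells, with coefficients of variation of 1.43% with CCG-1423, 0.913% with vismodegib and 0.837% with vehicle. Azin1, the Odc1 relative that carries no decarboxylase activity of its own, averaged 4427.5 ± 112 normalized counts with CCG-1423, 2945 ± 118 with vismodegib and 2707 ± 44.0 with vehicle (SD, n = 3 each), with 0.71 ± 0.04 for CCG-1423 over vehicle. The ratio of Odc1 to Azin1 was 0.991 to 1.03 with CCG-1423, 0.627 to 0.676 with vismodegib and 0.632 to 0.652 with vehicle.

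Sms, which makes spermine, went the other way from Srm, which makes its precursor spermidine. Sms had 754, 845 and 806 normalized counts with CCG-1423, 895, 939.8 and 809 with vismodegib, and 1633, 1658 and 1551 with vehicle. Both compounds lay below vehicle without overlap, with log2 fold changes of -1.01 ± 0.06 for CCG-1423 and -0.87 ± 0.06 for vismodegib, and these comparisons share the vehicle libraries. CCG-1423 and vismodegib overlapped each other, with a difference of -0.14 ± 0.06, so the order between them is not firm. The ratio of Sms to Srm was 0.196, 0.213 and 0.205 with CCG-1423, 0.474, 0.491 and 0.421 with vismodegib, and 0.946, 0.976 and 0.912 with vehicle. All 3 groups were apart from each other in this ratio.

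**Figure D1:**
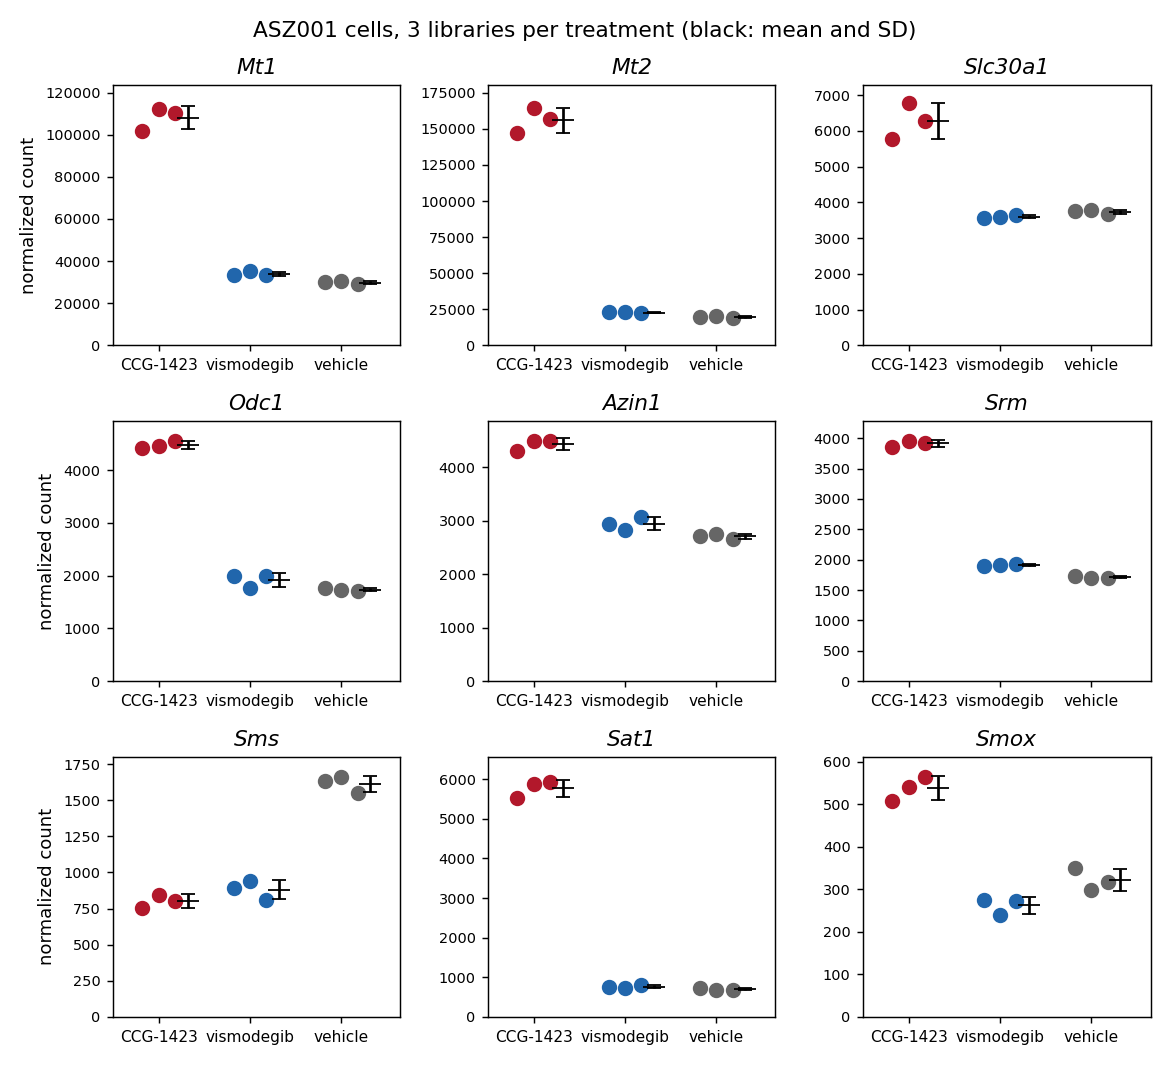
Normalized counts (linear axes from 0, 1 panel per gene) in each of 3 ASZ001 libraries with CCG-1423, vismodegib or vehicle; points are libraries and black marks the mean and SD. Mt2 lies at 147016 to 164215 with CCG-1423 and at 19111 to 20024 with vehicle, and Sms lies below vehicle with both compounds.

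Of the genes that break polyamines down, Sat1 had the largest log2 fold change of all 9 with CCG-1423. Mt2 lay within the SE of it at 2.997 ± 0.04, so the order of these genes is not firm. Sat1 had 5515, 5864 and 5924 normalized counts with CCG-1423, 763, 727 and 802 with vismodegib, and 738, 692 and 688 with vehicle, and its log2 fold change over vehicle was 3.03 ± 0.05, or 8.16-fold. Smox had 508, 542 and 565 normalized counts with CCG-1423, 275, 239 and 273 with vismodegib, and 350.4, 298 and 317 with vehicle, with 0.74 ± 0.08 over vehicle. Smox and Slc30a1 were the 2 genes whose levels ran in falling order through CCG-1423, vehicle and vismodegib with no overlap at either step. Of all genes tested, 43% lay wholly above vehicle with CCG-1423 and 14% wholly below vehicle with vismodegib. The share with both was not counted. At the vismodegib step Slc30a1 did not pass, with nearest values of 3673 and 3650, and the Smox call was lost without any 1 library. The ratio of Sat1 to Odc1 was 1.25 to 1.32 with CCG-1423, 0.383 to 0.410 with vismodegib and 0.399 to 0.417 with vehicle, so the acetylating enzyme's transcript gained on that of the decarboxylase.

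The comparison of CCG-1423 with vismodegib uses the same 3 CCG-1423 libraries as that with vehicle. Of the 9 genes, 8 rose and Sms fell by the threshold, where 84.8% of all genes tested passed, 42.4% in each direction. The log2 fold changes of CCG-1423 over vismodegib were 2.92 ± 0.05 for Sat1, 2.78 ± 0.04 for Mt2, 1.67 ± 0.04 for Mt1, 1.22 ± 0.04 for Odc1, 1.04 ± 0.08 for Smox and 1.04 ± 0.03 for Srm. Those 6 were at least 2-fold, as were 12.2% of all genes tested on that side, and 0 of the 9 were at least 2-fold lower, as 15.1% of all genes tested were. Slc30a1 had 0.80 ± 0.04 and Azin1 0.59 ± 0.04. The call for Sms was lost with only the 6 libraries compared in the fit, with no filter, with DESeq2, or without CCG-1423 library 1 or 3 or vismodegib library 1 or 2.

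**Figure D2:**
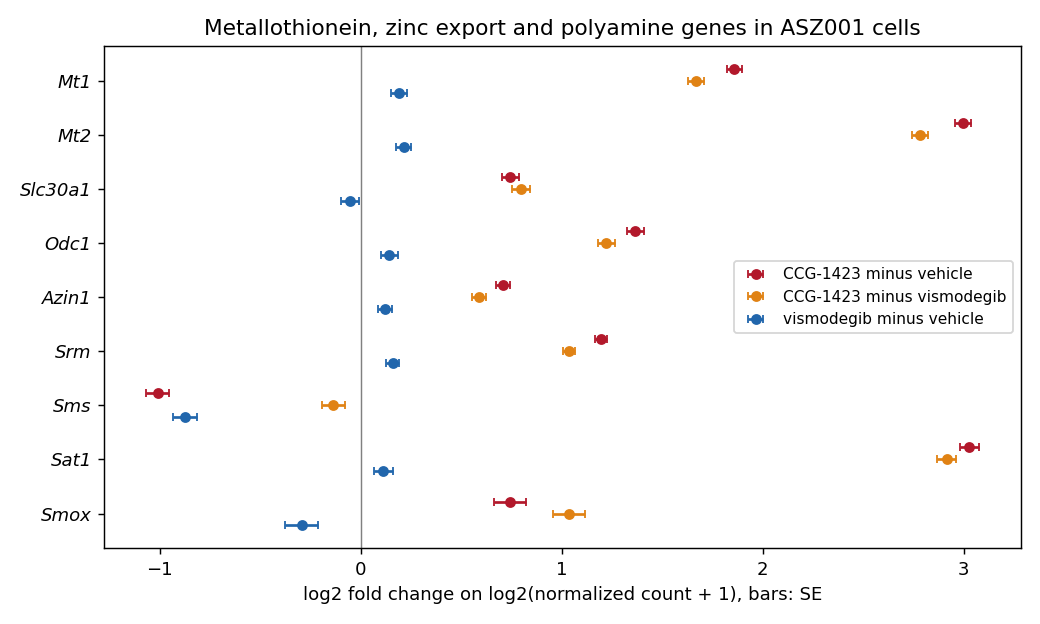
Log2 fold changes (horizontal axis, on log2(normalized count + 1), bars are SE) of the 9 measured genes for CCG-1423 minus vehicle, CCG-1423 minus vismodegib and vismodegib minus vehicle in ASZ001 cells. Sat1 and Mt2 reach 3.03 and 2.997 for CCG-1423 minus vehicle, and Sms is the gene with the largest shift for vismodegib minus vehicle, at -0.87.

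Vismodegib moved the group little apart from Sms. Of the 9 genes, 3 rose (Mt1, Mt2 and Srm) and 2 fell (Sms and Smox), where 5.5% of all genes tested passed, 1.58% as higher and 3.92% as lower. The rises were small, 0.19 ± 0.04 on the log2 scale for Mt1, 0.21 ± 0.04 for Mt2 and 0.16 ± 0.03 for Srm, and 0 of the 9 passed with at least a 2-fold change, beside 0.00783% of all genes tested on the higher side and 0.266% on the lower side. Smox had -0.29 ± 0.08, and it lost its call when any of the 6 libraries was left out. Values for the other genes were 0.14 ± 0.04 for Odc1, 0.12 ± 0.04 for Azin1, 0.11 ± 0.05 for Sat1 and -0.05 ± 0.04 for Slc30a1, none of which passed. With only the 6 libraries compared in the fit, 7 of the 9 passed, with Odc1 and Azin1 added as higher, where 13.8% of all genes tested passed. The groups were apart for 5 genes on the higher side, where 16% of all genes tested were, and for 3 on the lower side, where 14% were, and Sat1 overlapped. Without vehicle library 3 the count of the 9 that passed was 3, where 3.08% of all genes tested passed. Mt1 was then not among them, nor was it without vismodegib library 2. Scaling by total reads raised the median of all genes by 0.08 on the log2 scale in this comparison, with which 90.5% of all calls were higher against 28.7% in the deposited scaling, and Odc1, Azin1 and Sat1 then passed as higher, Smox no longer passed, and Slc30a1 changed sign to 0.03.

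The wider polyamine network was followed in a list of 28 genes besides those above, of which 23 were tested. This list and the zinc list below were also chosen with earlier results of these data known, so their calls are descriptions. Adjusted p-values are given for them only to show how near the threshold a call lay. With CCG-1423, 11 of these rose and 10 fell against vehicle, with a median log2 fold change of 0.03. Over all genes tested 42.8% rose and 42.6% fell, so these counts are near the background. Among those that rose were Slc3a2 (1.36 ± 0.05), a subunit of amino acid exchangers that has also been tied to polyamine export, Slc7a1 (1.27 ± 0.03), which imports arginine and ornithine, Adi1 (1.18 ± 0.03), an enzyme that salvages methionine from the by-product of polyamine synthesis, and Myc (1.09 ± 0.03), a transcription factor that acts on Odc1. Among those that fell were Mat2a (-1.92 ± 0.05), which makes S-adenosylmethionine, Arg1 (-1.85 ± 0.08), the arginase that releases ornithine, Eif5a2 (-1.60 ± 0.07), a relative of the factor that carries the spermidine-derived residue hypusine, and Oaz2 (-1.28 ± 0.03), an antizyme that holds Odc1 down. Oaz2 averaged 1476 ± 14.6 normalized counts with CCG-1423 and 3578 ± 50.5 with vehicle (SD, n = 3 each). Paox, the oxidase of acetylated polyamines, rose by 0.16 ± 0.07 (adjusted p = 0.0329 by limma), a call that was lost with DESeq2, with the replicate block (adjusted p = 0.0506) and without CCG-1423 library 1 or vehicle library 1 or 2. Oaz1, the main antizyme, was listed at 0 to 2.45 normalized counts in the cells and at 0 in every tumour library, so no fold is given.

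Against vismodegib, 7 of the 23 polyamine network genes rose with CCG-1423 and 10 fell, where 42.4% of all genes tested passed in each direction, with Arg1 at -2.18 ± 0.08 and Slc7a1 at 1.41 ± 0.03. For vismodegib over vehicle, 3 rose (Arg1, Atp13a2 and Dohh) and 1 fell (Slc7a1), where 1.58% of all genes tested rose and 3.92% fell, but with scaling by total reads the counts were 12 higher and 0 lower, where 22.9% of all genes tested were higher and 2.4% lower. Arg1 averaged 1132 ± 14.3 normalized counts with vismodegib and 902 ± 84.4 with vehicle (log2 fold change 0.33 ± 0.08, adjusted p = 0.0258 by limma). Its call was lost without vismodegib library 1, 2 or 3 or vehicle library 1 or 3. Atp13a2, a lysosomal polyamine exporter, had 0.16 ± 0.04, and Dohh, which completes hypusine, had 0.12 ± 0.03. The Atp13a2 call was lost without vismodegib library 2 or 3 or any vehicle library. The Slc7a1 call was lost without vismodegib library 2 or vehicle library 1 or 3, and with scaling by total reads. The Dohh call (adjusted p = 0.0498 by limma) was lost with a pseudocount of 0.5, no filter, edgeR, DESeq2 or the replicate block (adjusted p = 0.0614) and without any 1 of the 6 libraries. The count of 4 was 2 without vismodegib library 1 or vehicle library 2, 1 without vismodegib library 3, and 0 without vismodegib library 2 or vehicle library 1 or 3. On leaving out 1 library, 2.55% to 4% of all genes tested passed. Oaz2 and Myc did not pass, at 0.00 ± 0.03 and 0.05 ± 0.03.

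Zinc handling was followed in a second list of 26 genes, of which 19 were tested. With CCG-1423, 7 rose and 11 fell against vehicle, where 42.8% of all genes tested rose and 42.6% fell, with a median log2 fold change of -0.42 beside 0.00 over all genes tested. Slc39a10, a zinc importer of the cell surface, fell to 2701 ± 71.7 normalized counts with CCG-1423, against 11398 ± 70.0 with vehicle (SD, n = 3 each). Its log2 fold change was -2.08 ± 0.03. Slc39a13 (-1.55 ± 0.05), Slc30a7 (-0.76 ± 0.04) and Slc30a9 (-0.75 ± 0.03), zinc transporters of internal membranes, fell too. Slc30a4 (1.52 ± 0.03), which loads zinc into vesicles, the importer Slc39a14 (0.89 ± 0.04), Mtf1 (0.87 ± 0.04), the zinc sensor named above, and Slc39a7 (0.61 ± 0.03), which releases zinc from the endoplasmic reticulum, rose. Against vismodegib, 8 of the 19 rose with CCG-1423 and 10 fell, beside 42.4% of all genes tested in each direction, with Slc39a10 at -1.98 ± 0.03, Slc30a4 at 1.63 ± 0.03 and Slc39a6, another importer, at -0.59 ± 0.03. For vismodegib over vehicle 0 rose and 2 fell by limma, beside 1.58% and 3.92% of all genes tested, the importer genes Slc39a8 (-2.11 ± 0.20) and Slc39a14 (-0.25 ± 0.04), while Mtf1 did not pass at 0.02 ± 0.04. Slc39a10 did not pass at -0.10 ± 0.03 by limma (adjusted p = 0.0534). It passed as lower by edgeR (adjusted p = 0.0453), by DESeq2 (adjusted p = 0.0246) and with only the 6 libraries compared in limma (adjusted p = 0.00251). By edgeR and by DESeq2, 3 zinc genes passed as lower, where 4.16% and 3.85% of all genes tested did. With scaling by total reads the vismodegib counts were 7 higher and 2 lower, beside the 22.9% and 2.4% of all genes given above. Slc39a8 was low in these cells, at 16.4 ± 1.92 normalized counts with vismodegib and 74.8 ± 14.5 with vehicle (SD, n = 3 each).

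Across the 9 cell libraries the genes whose log2 levels followed Mt1 most closely among 10696 were Mapk7, Mt2 and Wnt7a, each with a Pearson correlation of 0.999. Those closest to Sat1 were Hspa9 (0.9998), Rassf5 (0.9997) and Shmt2 (0.9997), and those closest to Odc1 were Sil1, Slc16a1 and Fbxl12, each at 0.999. These correlations are descriptions over 3 groups of libraries that share a treatment, and they carry the difference between CCG-1423 and the other libraries. In the 8 tumours Mt2 was the closest gene to Mt1 among 12140 (0.985), followed by Zfp322a (0.949) and Rap2b (0.944). The closest to Sat1 were Rbm22 (0.996), Frmd6 (0.994) and Glis3 (0.993), and to Odc1 Hs3st3b1 (0.992), Dad1 (0.992) and Arpc4 (0.990). Within the tumours the genes thus fell into sets, with Sat1 correlated at 0.952 with Odc1 and 0.953 with Smox, at -0.952 with Slc30a1 and at 0.136 with Mt1 across the 8 libraries, in which sensitive tumours 1 to 3 stand apart from the other 5.

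Resistant tumours were set against sensitive ones to ask how these genes differ with response to the Smo inhibitor. None of the 9 genes passed by limma in the 8 tumours, where 0.113% of 15076 genes tested passed (0.0332% higher, 0.0796% lower) and 25.1% had an unadjusted p below 0.05, as did 4 of the 9, and edgeR also passed 0 of the 9. DESeq2 passed 3 of them, Sat1 and Odc1 as higher and Slc30a1 as lower, where it passed 3.44% of all genes as higher and 7.37% as lower. Without sensitive tumour 4, 4 of the 9 rose (Sat1, Odc1, Sms and Smox) and Slc30a1 fell, where 38.6% of 14918 genes tested passed, 20.6% as higher and 18% as lower. That tumour was set aside because of its profile across genes, so calls made without it are descriptions. The median log2 fold change of the 9 was 0.62 in the 8 tumours and 0.41 without sensitive tumour 4, beside 0.03 over all genes tested in either case. In whole tumours a change in the share of a cell type cannot be told apart from a change in RNA per cell.

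Sat1 and Odc1 were the 2 genes whose resistant tumours all lay above all sensitive ones, as 3.9% of all genes tested did, and 0 of the 9 lay wholly below, as 4% of all genes tested did. Sat1 had 2071, 1858, 2137 and 1215 normalized counts in resistant tumours 1 to 4, against 305, 335, 267 and 1113 in sensitive tumours 1 to 4. Sensitive tumour 4 came within a short distance of resistant tumour 4, while sensitive tumours 1 to 3 lay far below. The log2 fold change was 2.09 ± 0.43 with it and 2.56 ± 0.21 without it. Odc1 had 3200.2, 3076, 2098 and 2560.5 normalized counts in resistant tumours, against 610.1, 497, 699 and 1878 in sensitive tumours. Its log2 fold change was 1.76 ± 0.38 in the 8 tumours and 2.18 ± 0.19 without sensitive tumour 4.

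Sms and Smox differed in the same direction but with overlap. Smox had 5232, 3469, 2738 and 2415 normalized counts in resistant tumours, against 412, 533, 569.7 and 3616 in sensitive tumours, so sensitive tumour 4 lay inside the resistant range. The log2 fold change was 2.01 ± 0.63 in the 8 tumours and 2.72 ± 0.26 without it. Sms had 3186, 2238, 4161 and 1741 normalized counts in resistant tumours, against 811, 503, 331 and 4844 in sensitive tumours, with sensitive tumour 4 the highest of all 8. Its log2 fold change was 1.57 ± 0.74 in the 8 tumours and 2.38 ± 0.36 without it. In the 8 tumours edgeR and DESeq2 gave smaller values, 0.793 and 0.798 for Sms and 1.419 and 1.425 for Smox. The ratio of Sms to Srm was 4.04, 2.89, 3.53 and 3.38 in resistant tumours, against 1.83, 0.828, 0.444 and 6.37 in sensitive tumours. Thus in the tumours Sms lay high where Odc1 and Sat1 were high, whereas with CCG-1423 in the cells it fell while they rose.

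Slc30a1 and the metallothioneins did not share a pattern in the tumours. Slc30a1 had 633, 655, 565 and 766 normalized counts in resistant tumours, against 2478, 1890.4, 1542 and 679 in sensitive tumours. The resistant values sat close together and only sensitive tumour 4 fell among them, with a log2 fold change of -1.19 ± 0.36 in the 8 tumours and -1.57 ± 0.19 without it. Mt2 had 4855, 2109, 1655 and 1208 normalized counts in resistant tumours, against 2466, 2478, 1209 and 499 in sensitive tumours, and the groups overlapped over most of their range. Mt1 had 1127, 591, 593 and 453 normalized counts in resistant tumours, against 687, 605, 465 and 252 in sensitive tumours. The log2 fold changes were 0.62 ± 0.58 for Mt2 and 0.47 ± 0.37 for Mt1 in the 8 tumours, and 0.13 ± 0.46 and 0.17 ± 0.30 without sensitive tumour 4. Resistant tumour 1 was the highest and sensitive tumour 4 the lowest of the 8 for both metallothioneins.

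Srm and Azin1 varied within the groups about as much as between them. Srm averaged 814 ± 273 normalized counts in resistant tumours and 639 ± 147 in sensitive ones, and Azin1 averaged 1007 ± 284 in resistant tumours and 786 ± 275 in sensitive ones (SD, n = 4 each). Their log2 fold changes were 0.32 ± 0.27 and 0.37 ± 0.31 in the 8 tumours. Without sensitive tumour 4 they were 0.41 ± 0.28 and 0.24 ± 0.31, and neither passed.

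**Figure D3:**
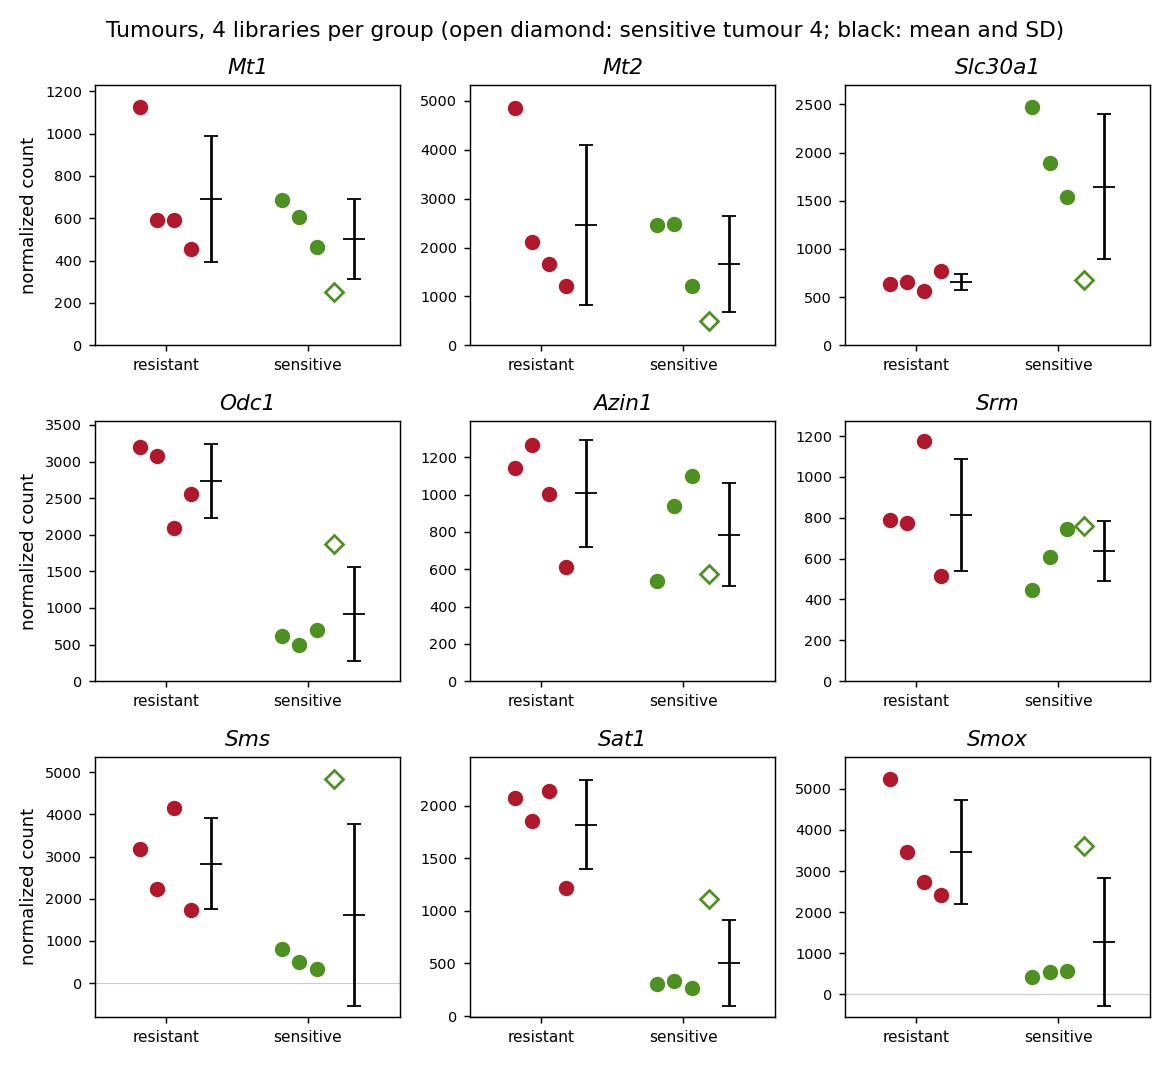
Normalized counts (linear axes, 1 panel per gene, a grey line at 0 where the SD reaches below it) in each of 4 resistant and 4 sensitive tumours; the open diamond is sensitive tumour 4 and black marks the mean and SD. Sensitive tumour 4 lies at 3616 for Smox and 4844 for Sms, away from sensitive tumours 1 to 3, which reach at most 811 for Sms and 569.7 for Smox.

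**Figure D4:**
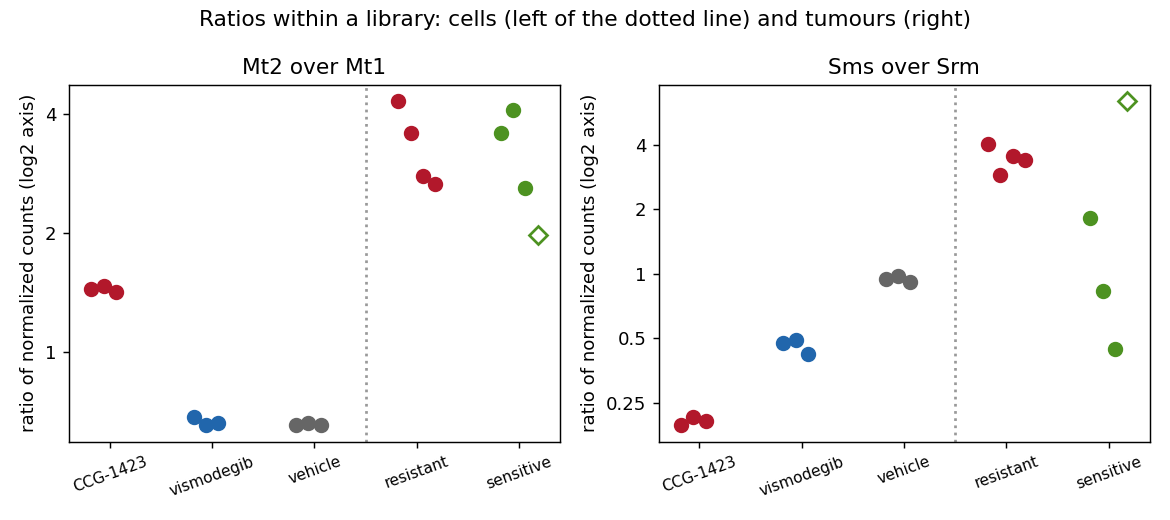
Ratios of normalized counts within each library (log2 axis, not corrected for gene length) for Mt2 over Mt1 and Sms over Srm, in cells left of the dotted line and tumours right of it; the open diamond is sensitive tumour 4. Sms over Srm runs from 0.196 to 0.213 with CCG-1423 and from 0.912 to 0.976 with vehicle.

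Of the network genes, 0 of 23 polyamine genes and 0 of 19 zinc genes passed by limma in the 8 tumours, where 5 polyamine and 6 zinc genes had an unadjusted p below 0.05, 0 passed by edgeR too, and 1 of each list passed by DESeq2. Of all genes tested, 25.1% had such an unadjusted p and 10.8% passed by DESeq2. Myc had a log2 fold change of 0.995 ± 0.26, Paox 0.69 ± 0.28, Mtf1 -0.48 ± 0.20, Slc39a10 0.21 ± 0.35 and Oaz2 0.04 ± 0.20, of which Oaz2 changed sign under scaling by total reads to -0.07. Without sensitive tumour 4, 7 of the 23 polyamine network genes rose and 2 fell, where 20.6% of all genes tested rose and 18% fell. Myc (1.23 ± 0.18), Eif5a (1.21 ± 0.19), the hypusine-bearing translation factor, Arg2 (1.29 ± 0.27), the mitochondrial arginase, and Paox (0.95 ± 0.19) rose, and Eif5a2 (-0.59 ± 0.15) and Atp13a2 (-0.85 ± 0.27) fell. Among the 19 zinc genes, against the same shares of all genes, 3 rose, Slc39a14 (2.84 ± 0.23), Slc30a4 (1.71 ± 0.33) and Slc39a13 (0.98 ± 0.19), and 3 fell, Slc39a8 (-2.91 ± 0.39), Mtf1 (-0.63 ± 0.16) and Slc39a3 (-0.67 ± 0.17). Slc39a14 averaged 12134 ± 1680 normalized counts in resistant tumours (SD, n = 4) and 1747 ± 563 in sensitive tumours 1 to 3 (SD, n = 3). As sensitive tumour 4 was set aside because of its profile, the calls without it are descriptions.

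Several other measures parted the tumours in the same way as Sat1, Odc1, Sms and Smox, and some did not. Genes of the Y chromosome had 1391 to 2174 reads in the sensitive tumours 1 to 3, and 0 in the other 5, so without sensitive tumour 4 sex and response cannot be told apart, and Sat1 and Sms lie on the X chromosome. With a term for Y-linked reads, which sets the resistant tumours against sensitive tumour 4 alone, the log2 fold changes were 0.68 ± 0.31 for Sat1, 0.52 ± 0.28 for Odc1, -0.13 ± 0.39 for Smox, -0.85 ± 0.53 for Sms and -0.06 ± 0.28 for Slc30a1. In the same fit they were 2.09 ± 0.67 for Mt2, 1.36 ± 0.44 for Mt1, 0.76 ± 0.46 for Azin1 and 0.04 ± 0.42 for Srm, so the metallothionein differences were larger than without the term, and 0 of the 9 passed. The summed level of 4 neutrophil markers, all 4 of them detected, was 5716 to 8737 normalized counts in resistant tumours, 626 to 1037 in the sensitive tumours 1 to 3, and 15784 in sensitive tumour 4. The 3 Hedgehog target genes Gli1, Ptch1 and Hhip summed to 4034 to 7816 in resistant tumours, 733 to 1606 in the sensitive tumours 1 to 3, and 6557 in sensitive tumour 4. The 3 leukocyte markers overlapped between the groups, at 1551 to 5348 in resistant tumours, 1197 to 2062 in the sensitive tumours 1 to 3, and 3874 in sensitive tumour 4. The 6 basal keratinocyte markers summed to 29454 to 80605 in resistant tumours, 149563 to 209297 in the sensitive tumours 1 to 3, and 76894 in sensitive tumour 4. Among these markers Itgb4 did not follow the sum. It lay at 3980 to 18587 in resistant tumours, 3991 to 6298 in the sensitive tumours 1 to 3, and 8074 in sensitive tumour 4. The part of these cell types in the tumour results was not tested.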

How the data were processed

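RNA sequencing libraries of 8 mouse tumours and 9 ASZ001 cultures were used, and 8 exome samples were not analysed here. The authors deposited normalized counts per gene symbol, a library-scaled signal, in 1 table for tumours and 1 for cells, per the file headers. The submitters' processing notes name TopHat, DESeq and mm9 without role or version, and the sources used here do not name the gene counter. All values were whole reads divided by 1 factor per library within 0.01 read, so reads were recovered from the deposited signal. The gene members and network lists were chosen with earlier results of these data known. Log2(normalized count + 1) was fitted with limma 3.58.1 (R 4.3.3), with trend, on genes that reached 10 normalized counts in 4 or more tumours or in 3 or more cell libraries. The 9 cell libraries shared 1 fit, so a gene has the same error in every cell comparison. CCG-1423 replicates differed more (chi-square per degree of freedom 8.28 to 39.68) than vismodegib (2.233 to 3.078) or vehicle replicates (1.825 to 4.542). The errors for vismodegib against vehicle therefore also hold the spread of the CCG-1423 libraries. Fold changes are on the scale of log2(normalized count + 1), which understates those of low genes. P-values were adjusted by Benjamini-Hochberg over all genes tested, with a threshold of 0.05. From each network list, up to 4 passing genes of smallest p per direction and comparison were named, with Oaz1, Oaz2, Paox, Myc, Mtf1 and Slc39a10 always. The fit was tested on simulated data. Alternatives were pseudocounts of 0.5 and 5, no filter, total-read scaling, edgeR 4.0.16 and DESeq2 1.42.0 on recovered reads, a replicate block, only the 6 libraries compared, a term for Y-linked reads, and leaving out each library. Replicate libraries differed by more than sampling noise (chi-square per degree of freedom 1.825 or more). A count of 0 allows up to 3 reads, worth 2.09 to 4.97 normalized counts in tumours, and this covers counting error only. Motifs were searched in the 250 bases before RefSeq starts.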

Additional observations from a re-analysis of the deposited data

Results flagged for a closer look

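In 6 of 28 groups looked at (14 genes in resistant and sensitive tumours), sensitive tumour 4 lay far from the other 3 sensitive tumours by Dixon's test. Chance flags about 1 in 20 independent groups, but these genes were measured in the same tumours and several vary together. The 6 flags all rest on 1 tumour, so their count cannot be set against that rate. The gap to the nearest sensitive tumour was divided by the range of the group and set against Dixon's critical value for 4 samples. Smox had 3616 normalized counts in that tumour, with a gap of 0.951 of the range. Sat1 had 1113 normalized counts with 0.919, Sms had 4844 with 0.894, and Odc1 had 1878 with 0.854. Among network genes, Paox had 158 normalized counts with 0.974, and Mtf1 had 519 with 0.840. Mtf1 was low in sensitive tumour 4 and the other 5 genes were high there, and each of the 6 values except those of Sat1, Odc1 and Sms lay within the range of the resistant tumours. Sat1 and Odc1 lay just below that range, and Sms lay above it.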

How the results depend on the processing

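The 17 genes that passed in the 8 tumours became 0 with a pseudocount of 0.5, total-read scaling, edgeR, the replicate block or the Y-linked term, and 1630 with DESeq2. DESeq2 passed 3 of the 9 genes, 1 polyamine and 1 zinc network gene. Leaving out 1 tumour gave 0 to 5763 genes, 0 to 5 of the 9, 0 to 9 polyamine and 0 to 6 zinc network genes, the highest each time without sensitive tumour 4 and 0 otherwise. Total-read scaling moved the tumour median of all genes by -0.11 (log2). For vismodegib against vehicle, 703 genes passed (5.5% of those tested). With total-read scaling 3229 did (25.3%, with 12 polyamine and 9 zinc genes). With only the 6 libraries compared 1721 did (13.8%, with 7 polyamine and 6 zinc genes). Leaving out 1 library there gave 325 to 509 genes (2.55% to 4%), 3 to 4 of the 9 and 0 to 2 polyamine genes. With the Y-linked term, Sms (-0.85), Smox (-0.13), Oaz2 (-0.042), Paox (-0.078) and Slc39a10 (-0.34) changed sign in tumours, as did Oaz2 with total-read scaling (-0.073), without resistant tumour 4 (-0.059) or sensitive tumour 3, and Slc39a10 without sensitive tumour 3. Leaving out 1 tumour gave -0.10 to 0.15 for Oaz2 and -0.098 to 0.41 for Slc39a10. For vismodegib, Slc30a1 (0.030, total-read scaling), Oaz2 (-1.65e-05 with edgeR and -0.0080 to 0.012 on leaving out 1 library) and Mtf1 (-0.0097 to 0.049 on leaving out 1 library) changed sign. The cause was not tested. Tumours with the same number correlated in their deviations at -0.15 to 0.12, beside -0.16 to 0.20 for tumours of differing number. So few pairs cannot exclude a pairing or a shared batch, and the main fit assumed none. With the replicate block 606 genes passed for vismodegib (4.74% of those tested), 4 of the 9 among them.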
